A study of Mus musculus with 7 samples.

Results

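The AP-1 and immediate early genes Fos, Fosb, Fosl1, Fosl2, Jun, Junb, Jund, Atf3, Egr1 and Ier2 were chosen by name, and all 10 were found among the 12771 genes of the count table. The transcripts came from cancer-associated fibroblasts (CAFs) of pancreatic tumors in C57BL/6 mice, given as 8-week-old C57BL/6J males in the study's methods. KPC cells, which are murine pancreatic cancer cells, were injected into the pancreas, and every tumor carried a lentiviral short hairpin RNA. In the shControl group the hairpin was non-targeting (3 libraries, replicates 1, 2 and 4), and in the shBrca2 group it was directed against Brca2, a DNA repair gene (4 libraries, replicates 1, 2, 3 and 4). The hairpin was in the cancer cells and not in the fibroblasts, which came from the host and kept their own Brca2. Tumors were taken 2 to 3 weeks after injection and digested enzymatically at 37 °C, and live podoplanin-positive cells negative for CD45, CD31 and EpCAM were sorted. The comparison asks how these transcripts in fibroblasts differed when the neighbouring cancer cells carried the Brca2 hairpin. Libraries read the 3' ends of poly(A) transcripts, by a variant of MARS-seq.

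AP-1 is a dimer of basic leucine zipper (bZIP) proteins. FOS family proteins pair with JUN family proteins, while JUN proteins can also pair with each other and with ATF proteins, and the dimer binds the DNA motif TGACTCA or the related TGACNTCA. Immediate early genes are transcribed within minutes of a growth factor or stress signal without new protein synthesis, largely through serum response factor, its ETS partners and CREB. In fibroblasts they are the classical response to serum, and tissue digestion is known to induce them as well.

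Total counts ran from 1898679 to 5990579 per library, and Brca2 itself had only 5 to 21 counts per library, which says nothing of its knockdown in the cancer cells. Among fibroblast markers, 10 of 10 were in the table, Pdgfra lay between 549 and 688 normalized counts in every library, and the summed level was 125620 to 144438 in shControl and 100464 to 120032 in shBrca2. The matrix genes Dcn (log2 fold change -0.77, DESeq2 adjusted p = 0.069) and Lum (-1.18, DESeq2 adjusted p = 0.015) were called lower in shBrca2, 2 of the 10 fibroblast markers. Of 10 epithelial markers 7 were in the table, and their summed level was 387 to 1142 in shControl against 1439 to 2040 in shBrca2. Of these 7 genes 5 were called higher in shBrca2 and 0 lower, where 9.04% of all genes were called in either direction. For immune markers 6 of 10 were in the table, with sums of 314 to 374 against 542 to 604. Of these 6 genes 3 were called higher and 0 lower. The defining genes Epcam, Ptprc and Cdh5 were not analysed here, and Pecam1 was at 0 in shBrca2 replicates 3 and 4, while Kdr read 33.3 to 102 normalized counts in shControl and 74.3 to 105 in shBrca2. Other marker sums overlapped between groups, at 47.8 to 125 against 91.5 to 143 for 4 of 8 endothelial genes, 894 to 2953 against 1993 to 2623 for 7 of 8 mesothelial genes, 368 to 443 against 365 to 514 for 6 of 7 pericyte genes and 157 to 271 against 103 to 162 for 8 of 8 acinar genes. Of the 8 acinar genes 4 were called lower and 1 higher, with a median log2 fold change of -2.25. Among pericyte genes 1 of 6 was called higher, and 0 of 4 endothelial and 0 of 7 mesothelial genes were called. The part of other cells in the results below was not tested, and in bulk samples fewer cells of a type and less RNA per cell cannot be told apart. shControl replicate 2 stood apart from its group by the mean chi-square per gene, which also grows with depth. The value was 17.0 and 17.1 between it and the other shControl libraries, and 9.83 between shControl replicates 1 and 4. Between it and shBrca2 replicates 1 to 4 the values were 19.3, 14.4, 16.4 and 19.1. The deepest library, shBrca2 replicate 2, was at 13.2, 12.6 and 12.5 from shBrca2 replicates 1, 3 and 4. Within shBrca2 the value was 8.19 between replicates 1 and 3, 3.35 between 1 and 4, and 8.01 between 3 and 4.

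None of the 10 genes passed the test in either direction. A gene was called when its adjusted p (DESeq2 likelihood ratio test, Benjamini-Hochberg over all genes) was under 0.1, its absolute log2 fold change over 0.5 and its mean normalized count over 5. By this rule 3.77% of the 12768 tested genes were higher in shBrca2 and 5.27% were lower, 9.04% in all. At an unadjusted p under 0.05 the same test counted 4 of the 10 genes, Fosl1 and Jund with higher and Junb and Egr1 with lower levels in shBrca2, where the share over all genes was 17.7%. The edgeR quasi-likelihood test also called 0 of 10. Without shControl replicate 2 the DESeq2 test called 1 gene higher, Jund, and 1 lower, Egr1. The fold changes pointed both ways, with 2 above and 8 below 0, and their median was -0.11 on the log2 scale against 0.01 over all genes. The groups did not overlap for 1 of the 10 genes, Fosl1, where 17.1% of all genes had groups apart. The median standard error of these log2 fold changes was 0.21, below the 0.30 of all genes. The study counts its replicates as mice, so the p-values measure the spread between mice. All 10 genes together took 1.19% to 1.58% of the counts in shControl and 1.17% to 1.54% in shBrca2.

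**Figure D1:**
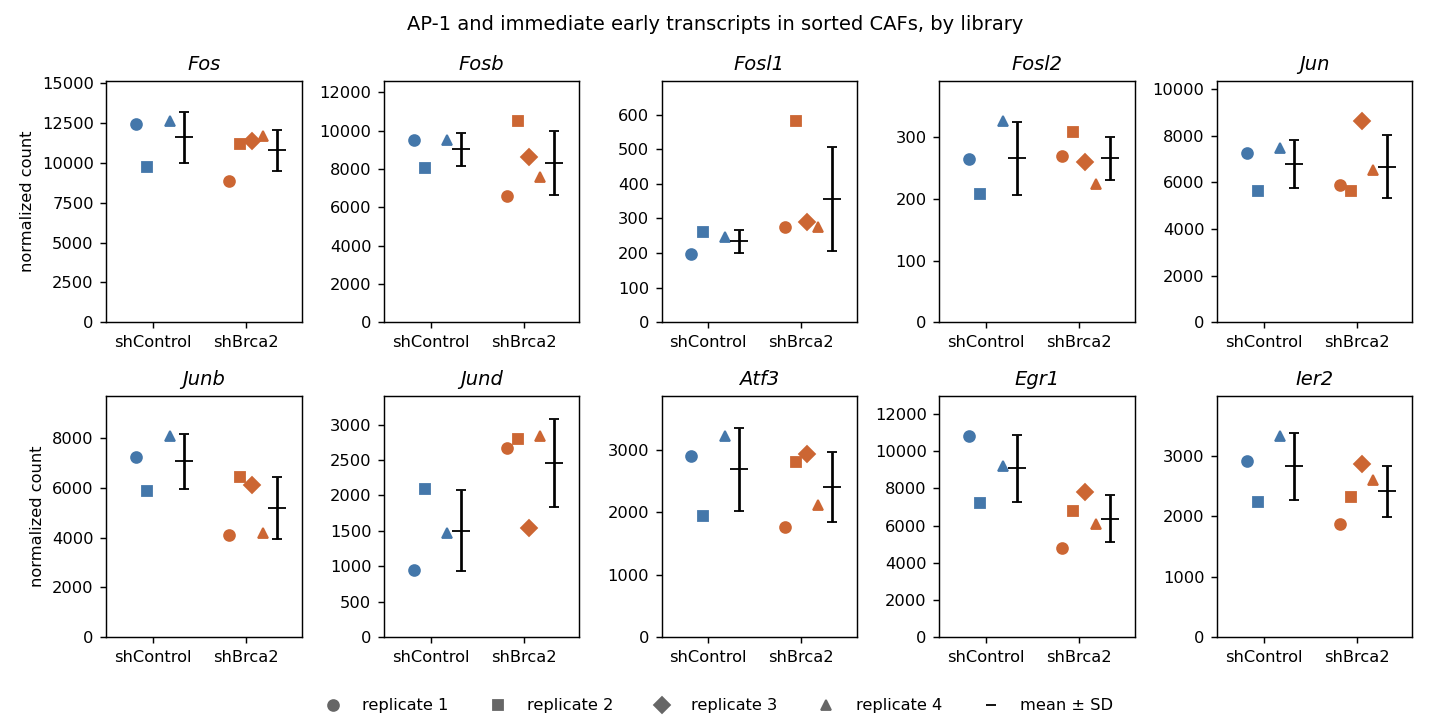
Normalized counts (vertical axes, linear from 0, one scale per gene) of the 10 transcripts in 3 shControl libraries (blue) and 4 shBrca2 libraries (orange), with the marker shape giving the replicate number and the black bar the group mean ± SD. Only the Fosl1 panel has all orange points above all blue ones, and its highest point, shBrca2 replicate 2, is at 581.

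Promoter sequences are shown because CRE-like sites close to the start are known control elements of Fos and Jun. Of the 10 genes 7 had a RefSeq promoter on GRCm38.p6, the window from 250 bases before to 50 bases after the start. Fosl1, Egr1 and Ier2 were not searched. Both strands were searched for 5 motifs, with matches of overlapping motifs counted for each. The core of a CREB site, TGACG, occurred in 4 of the 7 windows (Fos, Fosb, Junb and Atf3) and in 20.8% of 32851 promoters. The longer motif TGACNTCA, with any base at N, occurred in Jun alone among the 7 and in 8.83% of promoters. The AP-1 motif TGACTCA (5.20% of promoters) and the CArG box, the serum response factor motif (1.63%), were in none of the 7 windows, and the EGR motif GCGNGGGCG (5.55%) was in Fosb and Fosl2. A missing match says only that these letters are not in this window. The windows below are written along each gene's strand from 5′ to 3′, and the capitals mark the match, which in Atf3 lies on the other strand.
Fos, chr12:85473806-85473846, plus strand, 66 to 62 bases before the start: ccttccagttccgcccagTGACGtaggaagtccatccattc
Junb, chr8:84978832-84978872, minus strand, 106 to 102 bases before the start: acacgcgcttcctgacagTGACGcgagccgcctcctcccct
Jun, chr4:95052242-95052285, minus strand, 45 to 38 bases before the start: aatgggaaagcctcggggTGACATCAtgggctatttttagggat
Atf3, chr1:191183334-191183358, minus strand, 7 to 3 bases before the start: aagctattaatagcattaCGTCAgc
A second TGACG stood 129 to 125 bases before the Fos start. The Fosb window is counted from a start inside the gene's full span, and its match lies within that span. A match is a description of letters and not a measured binding site. The 5 genes with a TGACG or TGACNTCA match had log2 fold changes between -0.44 for Junb and -0.02 for Jun, and none of the 5 passed the test.

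In the FOS family, Fos, Fosb and Fosl2 had folds near 1, and Fosl1 had the highest fold. Fos (chr12:85473890-85477274), the founding member of the family, had normalized counts of 12427, 9726 and 12599 in shControl replicates 1, 2 and 4. In shBrca2 replicates 1 to 4 it had 8878, 11163, 11389 and 11674. The groups overlapped, the mean was 11584 ± 1611 (SD, n = 3) against 10776 ± 1282 (SD, n = 4), and the fold was 0.930 with a 95% interval of 0.743 to 1.16 (DESeq2 adjusted p = 0.84). The interval leaves room for a fall to 0.743-fold and holds no 1.5-fold rise.

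Fosb (chr7:19302696-19310118), whose product is a close relative of FOS, read 9509, 8036 and 9538 normalized counts in shControl. In shBrca2 it read 6607, 10492, 8623 and 7586. The shBrca2 libraries thus held both the lowest and the highest value, and the fold was 0.922 (95% interval 0.717 to 1.19, DESeq2 adjusted p = 0.84). Fosl2 (chr5:32136472-32157840), which encodes FRA-2, a FOS relative without a strong transactivation domain, spanned 207 to 326 in shControl and 225 to 308 in shBrca2. Its means of 266 ± 59.2 (SD, n = 3) and 266 ± 34.5 (SD, n = 4) were alike to the precision printed, with a 95% interval of the fold of 0.754 to 1.32 (DESeq2 adjusted p = 0.98). Gm72529, on the opposite strand, shares 425 of the 10397 Fosl2 exon bases.

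Fosl1 (chr19:5447698-5455938) encodes FRA-1, the FOS relative that accumulates under sustained ERK signalling. It had 197, 261 and 246 normalized counts in shControl. In shBrca2 it had 275, 581, 290 and 276. Every shBrca2 library was above every shControl library, but 3 of the 4 lay between 275 and 290, against 261 in the highest shControl library. The log2 fold change was 0.61 ± 0.29 (SE), a fold of 1.52 with an interval of 1.03 to 2.25, unadjusted p = 0.037 and DESeq2 adjusted p = 0.23. The size rested on shBrca2 replicate 2: without it the log2 fold change was 0.26 and the DESeq2 adjusted p 0.66. Without shControl replicate 2 they were 0.69 and 0.21. Fosl1 exons share 1163 of 2033 bases with Ccdc85b on the opposite strand (GENCODE vM39). The strand setting of the counting is not given in the sources used here, so whether reads of the pair were mixed is not known.

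Fosl1 was also set against Fos within each library, which removes any scaling between libraries. Per 1000 Fos counts there were 15.9, 26.8 and 19.5 Fosl1 counts in shControl, and 30.9, 52.0, 25.5 and 23.7 in shBrca2. The lowest shBrca2 values were thus below shControl replicate 2. The log2 ratio was -5.62 ± 0.38 (SD, n = 3) against -4.99 ± 0.51 (SD, n = 4), which is 0.63 higher (exact permutation test, two-sided, over 35 splits, p = 0.17, smallest possible 0.057). Fosl1 made up 0.881% to 1.43% of FOS family counts in shControl and 1.40% to 2.58% in shBrca2.

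In the JUN family, Jun had a fold near 1, while Junb and Jund had fold changes of opposite sign. Jun (chr4:95049036-95052222), the main partner of FOS, read 7256, 5614 and 7470 normalized counts in shControl. In shBrca2 it read 5880, 5640, 8615 and 6544. The groups overlapped almost fully, with means of 6780 ± 1015 (SD, n = 3) and 6670 ± 1352 (SD, n = 4) and a fold interval of 0.755 to 1.28 (DESeq2 adjusted p = 0.96). The antisense gene Junos shares 528 of 3189 exon bases with Jun.

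Junb (chr8:84976909-84978748), which encodes a weaker activator that can oppose JUN in growth control, had 7233, 5865 and 8074 normalized counts in shControl. In shBrca2 it had 4095, 6423, 6104 and 4169. shBrca2 replicates 1 and 4 were below all others, and replicates 2 and 3 lay above shControl replicate 2. The log2 fold change was -0.44 ± 0.21 (SE), a fold of 0.736 with an interval of 0.550 to 0.986, unadjusted p = 0.039 and DESeq2 adjusted p = 0.24. The size depended on single libraries, from -0.56 without shBrca2 replicate 2 (DESeq2 adjusted p = 0.093, a call) to -0.33 without shControl replicate 4, and it was -0.56 without shControl replicate 2 (DESeq2 adjusted p = 0.11). On the opposite strand Prdx2 shares 173 and Gm65321 145 of the 2381 Junb exon bases.

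Jund (chr8:70697739-70700616), the JUN gene known for steady expression in resting cells, had 947, 2085 and 1471 normalized counts in shControl. In shBrca2 it had 2669, 2795, 1539 and 2837. Of the shBrca2 libraries 3 stood above every shControl library, and replicate 3 lay between shControl replicates 4 and 2. The log2 fold change was 0.71 ± 0.28 (SE), a fold of 1.64 with an interval of 1.12 to 2.41, unadjusted p = 0.013 and DESeq2 adjusted p = 0.12, the lowest of the 10. It passed the test without shControl replicate 2 (1.02, DESeq2 adjusted p = 0.0063) and without shBrca2 replicate 3 (0.88, DESeq2 adjusted p = 0.016), and fell to 0.47 without shControl replicate 1 (DESeq2 adjusted p = 0.47). The predicted gene Gm11175 shares 877 of 1667 exon bases with Jund on the other strand, and whether their reads were mixed is not known either.

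As a share of JUN family counts, Jund took 6.14%, 15.4% and 8.64% in shControl and 21.1%, 18.8%, 9.47% and 20.9% in shBrca2. Junb took 46.9%, 43.2% and 47.5% against 32.4%, 43.2%, 37.5% and 30.8%. Replicate 3 of shBrca2 kept a Jund share within the shControl range, and replicate 2 a Junb share next to that of shControl replicate 2. These are shares of 3'-end counts and carry no test.

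**Figure D2:**
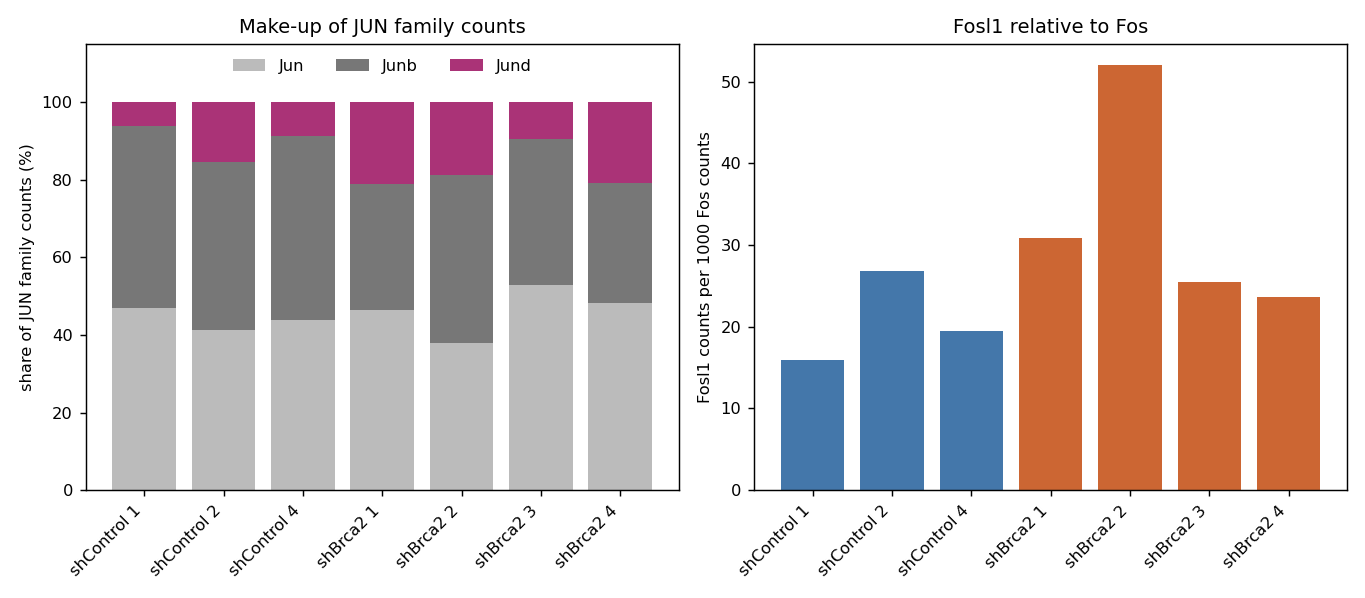
Left, share of JUN family counts (percent, vertical axis) taken by Jun, Junb and Jund in each library (horizontal axis). Right, Fosl1 counts per 1000 Fos counts in each library, with shControl in blue and shBrca2 in orange. Jund shares reach 21.1% in shBrca2 replicate 1, and the Fosl1 ratio is highest in shBrca2 replicate 2 at 52.0.

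Among the remaining immediate early genes, Egr1 (chr18:34861207-34864956), a zinc finger factor activated by serum response factor, had the lowest fold. It read 10803, 7191 and 9219 normalized counts in shControl. In shBrca2 it read 4775, 6797, 7794 and 6079. Only shControl replicate 2 and shBrca2 replicate 3 crossed, and the log2 fold change was -0.51 ± 0.21 (SE), a fold of 0.701 with an interval of 0.527 to 0.932, unadjusted p = 0.014 and DESeq2 adjusted p = 0.13. Leaving out either of these libraries brought Egr1 past the test, at -0.66 without shControl replicate 2 (DESeq2 adjusted p = 0.025) and -0.63 without shBrca2 replicate 3 (DESeq2 adjusted p = 0.048), while without shControl replicate 1 it was -0.37 (DESeq2 adjusted p = 0.52).

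Atf3 (chr1:191170296-191183333), the stress-induced ATF that often represses its targets, read 2897, 1936 and 3214 normalized counts in shControl. In shBrca2 it read 1763, 2797, 2929 and 2117. The groups overlapped, and the fold was 0.895 (95% interval 0.649 to 1.23, DESeq2 adjusted p = 0.82). Ier2 (chr8:84661331-84662852), a short-lived nuclear protein of the serum response, spanned 2233 to 3327 in shControl and 1866 to 2860 in shBrca2, with a fold of 0.852 (95% interval 0.648 to 1.12, DESeq2 adjusted p = 0.63).

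Several of the 10 genes had their lowest or highest value in the same library, and these counts were not compared with those over all genes. shBrca2 replicate 1 was lowest of the 7 libraries for 6 of the 10 genes, Fos, Fosb, Junb, Atf3, Egr1 and Ier2. shControl replicate 4 was highest for 5, Fos, Fosl2, Junb, Atf3 and Ier2. Each gene's pattern over the 7 libraries was compared with 9062 genes of mean normalized count over 20 by the root mean square difference of centred log2(normalized count + 1) values. For Fos the nearest were Rchy1 (0.062), Trnau1ap (0.063) and Fchsd2 (0.076), and the nearest of the other members was Ier2 (0.12). The nearest to Egr1 were Sertad1 (0.074), S100a6 (0.089) and Prr14 (0.090), and the nearest member was Junb (0.17). S100a6, a calcium-binding protein, was called lower (log2 fold change -0.55 ± 0.20 (SE), DESeq2 adjusted p = 0.075), and so was the transcriptional coregulator Sertad1 (-0.56 ± 0.22, DESeq2 adjusted p = 0.099). Prr14 was not called (-0.42 ± 0.25, DESeq2 adjusted p = 0.39). These genes were chosen for likeness to Egr1 over the same libraries. Fold changes like that of Egr1 follow from the choice and are no separate result.

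**Figure D3:**
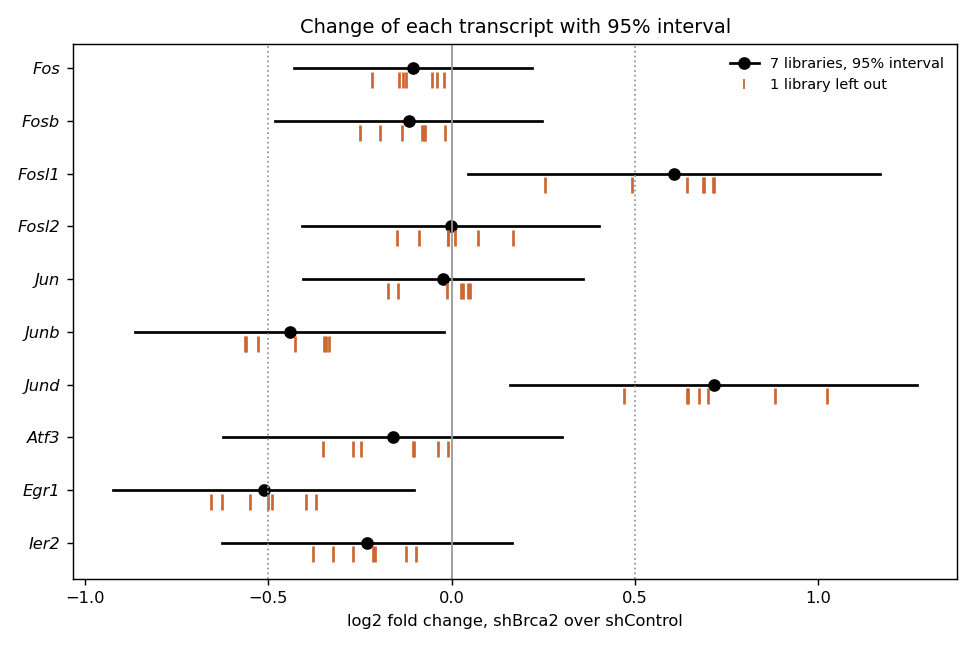
Log2 fold change of shBrca2 over shControl (horizontal axis) for each of the 10 transcripts, with black points and lines for the 7-library estimate and its 95% interval and orange ticks for the estimates with 1 library left out. The intervals of Fosl1, Junb, Jund and Egr1 leave out 0, ticks of Jun and Fosl2 lie on both sides of 0, and dotted lines mark the 0.5 limit of the test.

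Other genes of the pathway were taken from 5 lists. These lists were chosen with earlier results of these data known, so their shares of calls carry no test against all genes. Of 31 other immediate early genes 6 (19.4%, against 9.04% of all genes) passed the test, 2 higher and 4 lower, with a list median of -0.14. Higher were Klf10, a TGFβ-induced zinc finger factor, with 94.8, 60.7 and 119 normalized counts in shControl against 193, 196, 187 and 211 in shBrca2 (log2 fold change 1.10 ± 0.23 (SE), DESeq2 adjusted p = 2.1e-04), and the small GTPase Rhob (0.56 ± 0.14, DESeq2 adjusted p = 0.0023). All Klf10 values in shBrca2 were above those in shControl. Lower were Myc, the growth regulator (-1.64 ± 0.54, DESeq2 adjusted p = 0.040), Gadd45b, a stress-induced regulator of MAP kinase signalling (-0.68 ± 0.19, DESeq2 adjusted p = 0.011), Arc (-0.79 ± 0.29, DESeq2 adjusted p = 0.069) and the anti-apoptotic gene Mcl1 (-0.61 ± 0.21, DESeq2 adjusted p = 0.055). Myc split the shControl libraries, with 1672, 557 and 1923 normalized counts against 280, 602, 589 and 312 in shBrca2, so that replicate 2 lay below 2 of the shBrca2 libraries.

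Klf10 stayed called when any 1 library was left out, while each of the other calls was lost in at least 1 such fit. Rhob was lost only without shControl replicate 1 (log2 fold change 0.52, DESeq2 adjusted p = 0.11). Gadd45b was lost only without shControl replicate 4 (DESeq2 adjusted p = 0.14). The Myc call was lost without shControl replicate 1 (0.24), shControl replicate 4 (0.24) or shBrca2 replicate 4 (0.19). Arc was lost without shControl replicate 2 (log2 fold change -0.38, DESeq2 adjusted p = 0.43), shBrca2 replicate 1 (0.26) or shBrca2 replicate 4 (0.20), and by edgeR (0.11). Mcl1 was lost without shControl replicate 1 (0.32), shControl replicate 4 (0.20), shBrca2 replicate 1 (0.28) or shBrca2 replicate 4 (0.22). The count of lower calls in this list ran from 1 to 6 over these fits, the highest without shBrca2 replicate 2, and the lowest without shControl replicate 4 or without shBrca2 replicate 4. The count of higher calls ran from 1 without shControl replicate 1 to 3 without shControl replicate 4.

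Of 21 other bZIP factors tested 3 (14.3%) were called, with a list median of 0.04. Atf5, a stress-response ATF, was lower with 1977, 1903 and 1714 normalized counts in shControl against 990, 1313, 938 and 1026 in shBrca2 (log2 fold change -0.80 ± 0.17 (SE), DESeq2 adjusted p = 8.6e-05), with no overlap, and stayed called when any 1 library was left out. Batf, an AP-1 factor of lymphocytes that pairs with JUN proteins, was lower at low counts, 7.78 to 27.8 against 2.33 to 6.02 (-1.96 ± 0.64, DESeq2 adjusted p = 0.034). Bach1, a repressor of the heme response, was higher (0.84 ± 0.27, DESeq2 adjusted p = 0.031). Batf was lost without shControl replicate 1 (0.11), shControl replicate 2 (-1.40, DESeq2 adjusted p = 0.32), shBrca2 replicate 2 (0.16) or shBrca2 replicate 4 (0.12), and Bach1 without shControl replicate 1 (0.10), shControl replicate 4 (0.28), shBrca2 replicate 1 (0.25) or shBrca2 replicate 2 (0.10). Over these fits 0 or 1 factors were called higher and 1 or 2 lower. Creb1 was not analysed here.

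Of 21 upstream kinases and serum response factor cofactors tested 2 (9.52%) were called, both higher, with a list median of 0.01. Map3k1, a kinase above JNK and ERK, had 5.13, 3.80 and 5.84 normalized counts in shControl against 31.0, 18.1, 43.2 and 22.4 in shBrca2 (log2 fold change 2.48 ± 0.54 (SE), DESeq2 adjusted p = 1.6e-04), and stayed called when any 1 library was left out. Map2k1, which encodes the ERK kinase MEK1, was higher by 0.67 ± 0.18 (DESeq2 adjusted p = 0.0054) and lost without shControl replicate 4 (0.60, DESeq2 adjusted p = 0.11), which left 1 call. Nab1 was not analysed here.

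Of 24 genes known as AP-1 targets, 9 (37.5%, against 9.04% of all genes) were called, 8 higher and 1 lower, with a list median of 0.61 against 0.01 over all genes. Neither difference from all genes was tested, because this list too was chosen with earlier results of these data known. Higher were Plaur, the urokinase receptor, with 327, 547 and 333 normalized counts in shControl against 765, 865, 684 and 857 in shBrca2 (log2 fold change 0.98 ± 0.22 (SE), DESeq2 adjusted p = 4.7e-04), and Vegfa, the angiogenic growth factor (0.89 ± 0.21, DESeq2 adjusted p = 0.0013). All Plaur values in shBrca2 were above those in shControl. Ezr, a membrane-cytoskeleton linker also abundant in epithelia, was higher by 1.08 ± 0.29 (DESeq2 adjusted p = 0.0077), Hmox1, heme oxygenase, by 0.90 ± 0.23 (DESeq2 adjusted p = 0.0050), and Ereg, an EGF receptor ligand, by 1.19 ± 0.38 (DESeq2 adjusted p = 0.035). Tgfb1 was higher by 1.08 ± 0.37 (DESeq2 adjusted p = 0.062), and Hmga2, a chromatin protein, by 2.25 ± 0.60 (DESeq2 adjusted p = 0.0029) at 2.53 to 4.86 against 12.9 to 21.3 normalized counts. The ninth called gene, the hyaluronan receptor Cd44, past the limit of 8 and named after its values were seen, was higher by 0.74 ± 0.17 (DESeq2 adjusted p = 0.0012). The lower gene was Mmp3, the matrix protease stromelysin, with 1584, 1195 and 1035 normalized counts in shControl against 510, 710, 580 and 437 in shBrca2 (-1.18 ± 0.22, DESeq2 adjusted p = 7.4e-06), without overlap.

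The target calls held for Plaur, Vegfa, Ezr, Hmox1, Hmga2, Cd44 and Mmp3 when any 1 library was left out. Ereg was lost without shControl replicate 4 (DESeq2 adjusted p = 0.19) or shBrca2 replicate 2 (log2 fold change 0.71, DESeq2 adjusted p = 0.18). Tgfb1 was lost without shControl replicate 1 (0.28), shControl replicate 4 (0.27), shBrca2 replicate 2 (0.40) or shBrca2 replicate 4 (0.22), and by edgeR (0.11). Over these fits 6 to 11 targets were called higher and 1 to 3 lower, with 11 higher and 2 lower without shControl replicate 2 and 6 higher and 3 lower without shBrca2 replicate 2. The epithelial and immune marker sums given above were higher in the same shBrca2 libraries, and their part in these levels was not tested. Hmga1 was not analysed here.

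Heat shock genes, which also respond to digestion stress, gave 0 calls of 9 tested by DESeq2 and by edgeR, with 3 at an unadjusted p under 0.05. Their summed level was 9611 to 10571 normalized counts in shControl and 11495 to 15908 in shBrca2, without overlap. The inducible chaperone Hspa1a read 1406, 1322 and 966 in shControl and 2185, 901, 3218 and 1942 in shBrca2, so shBrca2 held both ends of the range. Leaving out shBrca2 replicate 2 gave 2 higher and 1 lower call, and leaving out shControl replicate 4 gave 1 higher. Whether handling stress had a part in the levels of the 10 genes was not tested. Dnaja1 was not analysed here.

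**Figure D4:**
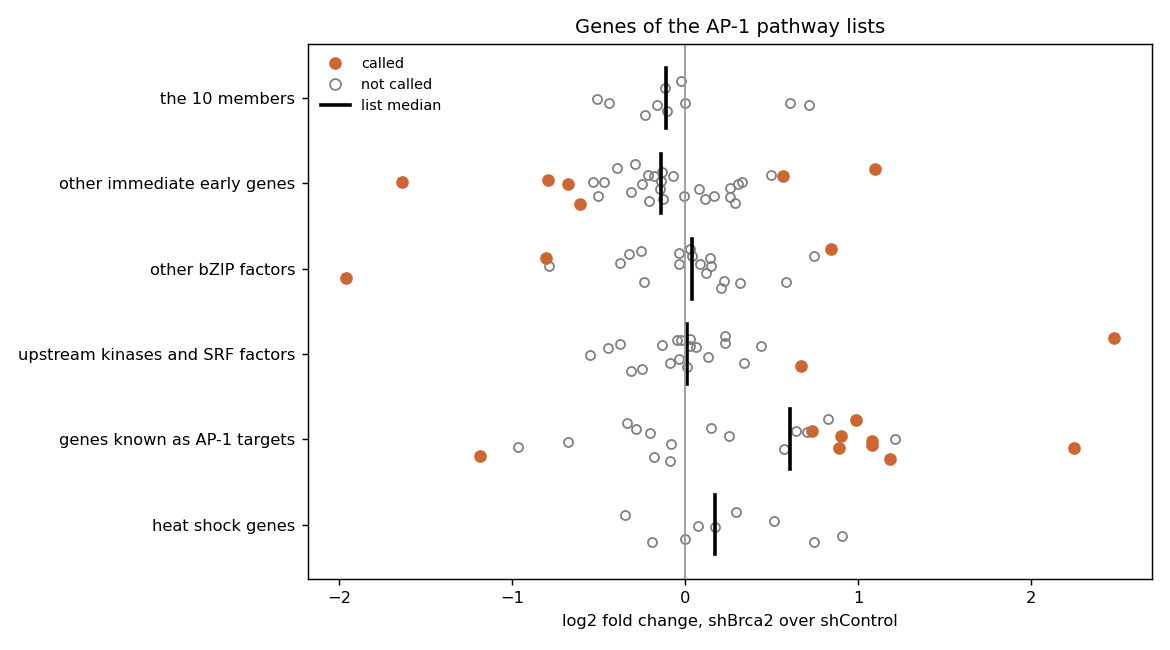
Log2 fold change of shBrca2 over shControl (horizontal axis) for each tested gene of the 10 members and of the 5 pathway lists (vertical axis, points spread for visibility), with filled orange points for called genes, open grey points for the rest and black bars for list medians. The AP-1 target list has its median at 0.61, while the medians of the members and of the other immediate early genes are at -0.11 and -0.14. Members and lists were chosen with earlier results of these data known.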

How the data were processed

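The authors deposited one table of raw counts per gene symbol, whole numbers that were not normalized. The submitters' processing notes name bcl2fastq, cutadapt, STAR 2.4.2a, HTSeq and DESeq2 with the mm10 build (GRCm38). The annotation, the strand setting and any collapsing of molecular barcodes are not given in the sources used here. PCR copies may therefore be among the counts. The counts of all 7 libraries were fitted in DESeq2 1.42.0 under R 4.3.3 with a likelihood ratio test of the group, thresholds as in the study's methods and fold changes not shrunken. 3 of the 12771 genes received no p. Intervals of fold changes are the log2 fold change ± 1.96 standard errors. edgeR 4.0.16 with TMM, DESeq2 with TMM factors, a filter of 10 counts in 3 libraries, no filter, a replicate block and leaving out each library were alternatives. The code was tested on simulated counts. Libraries were grouped by the silencing label. The members and lists were chosen with earlier results of these data known. Of each pathway list every called gene was named, up to 8 by size. Named neighbours are the 3 nearest genes of Fos and Egr1. Positions and promoters are RefSeq GRCm38.p6, and exon overlaps GENCODE vM39.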

Additional observations from a re-analysis of the deposited data

Results flagged for a closer look

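In 30 groups of 4 shBrca2 libraries tested for a value far from the rest, 3 passed Dixon's critical value at 95%. Chance gives about 1 in 20 for normally distributed values in groups not chosen by these same data. Ereg was named because it was called in these libraries, so that rate is no measure for it. Fosl1 was at 581 normalized counts in shBrca2 replicate 2, far above the other 3, with a gap of 0.949 of the range. Jund was at 1539 in shBrca2 replicate 3, below the other 3, with a gap of 0.870. Ereg was at 239.6 in shBrca2 replicate 2, above the other 3, with a gap of 0.864. Fosl1 and Ereg were thus high in the same library.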

How the results depend on the processing

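With 3 against 4 libraries, the 95% intervals of the 10 genes spanned folds from 0.527 (Egr1) to 2.41 (Jund). Counts of the 10 genes called higher ran from 0 to 1 when 1 library was left out (Jund), and those called lower from 0 to 1 (Egr1 or Junb). Same-numbered libraries did not deviate together (correlations of -0.066, -0.098 and -0.095). Deviations from means of 3 and 4 libraries cannot decide whether a replicate number marks a shared batch. In the block fit shBrca2 replicate 3 has no shControl partner and adds nothing to the group difference. With a replicate block 1 gene was called higher, Jund (0.95, DESeq2 adjusted p = 0.015), 0 were called lower, and 211 higher and 280 lower calls were made over all genes against 481 and 673. Of the called list genes, the block ended the calls of Map2k1 (DESeq2 adjusted p = 0.10), Rhob (0.14), Mcl1 (0.30), Bach1 (0.35) and Myc (0.40), and gave Batf and Hmga2 no adjusted p. The Fosl1 to Fos difference was 0.73 with replicate numbers paired (p = 0.25, exact sign flips, the smallest possible), 0.62 with a pseudocount of 5 in place of 1, and 0.39 to 0.83 with 1 library left out. Fosl2 turned positive with the 10-count filter (0.0017) and with the block (0.021), and ran from -0.15 to 0.17 with 1 library left out. Jun ran from -0.17 to 0.050 with 1 library left out. The other 8 genes kept their sign in all 12 alternatives.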
